A study of Mus musculus with 6 samples.

Results

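Genes that clear nuclei, mitochondria and other organelles from cells were examined in RNA of newborn mouse lens: Dnase2b, Bnip3, Bnip3l, Atg5, Atg7, Becn1, Sqstm1, Map1lc3b, Fyco1 and Chmp4b. They were chosen by function, but with earlier results of these data known. Every probe set annotated to a single 1 of these gene symbols was taken. This gave 20 probe sets for 9 of the 10 genes, among 22626 probe sets tested and 12393 genes with a probe set of a single symbol. Bnip3l was not measured as a single gene, because all 3 of its probe sets are annotated to Bnip3l and to the pseudogene Bnip3l-ps together. Affymetrix arrays were hybridized with lens RNA of 3 wild-type mice on the NMRI background and 3 Pax6 heterozygous (Pax6 lacZ/+) mice. The mice were 1 day old, and each sample pooled the 2 lenses of 1 animal. Heterozygous animals have a lacZ allele and a normal allele of Pax6, a transcription factor gene needed for eye formation, in every cell. No treatment was applied. Whole lenses were used, so epithelium and fibers were measured together, and fewer cells of a type and less RNA per cell cannot be told apart.

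Lens fibers differentiate from an epithelium on the anterior face of the lens and then destroy their nuclei, mitochondria and endoplasmic reticulum, which leaves the center of the lens free of bodies that scatter light. The DNA of the fiber nuclei is cut by DNase IIβ, an acid nuclease encoded by Dnase2b. In macroautophagy a double membrane grows around cargo, is coated with lipid-linked LC3, and fuses with a lysosome, and mitophagy is the form of this pathway that removes mitochondria. These genes are transcribed in many tissues, whereas Dnase2b is expressed in few tissues and is abundant in lens fibers.

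Values are signal intensities on the linear scale, normalized by robust multichip average (RMA), which summarizes each probe set's probes as 1 value. Differences are on the log2 scale, with wild-type subtracted from heterozygous, and p-values come from limma with adjustment over all 22626 probe sets. A probe set's signal depends on its probes as well as on the RNA, so levels are not compared between probe sets. The array is that of lens: the 10 measured fiber markers, among them the beta-crystallin genes Crybb1 and Cryba1 and the membrane protein gene Mip, summed to between 97576 and 116926 in the wild-type arrays and between 94393 and 115122 in the heterozygous arrays. Arrays with the same replicate number in both genotypes deviated together from their genotype means (correlations over all probe sets of 0.645, 0.734 and 0.604). The median log2 difference over all probe sets was −0.01, and 53.5% of them lay below 0. Pax6 itself, at the brightest of its 5 probe sets, read 1169, 1760 and 963 in wild-type and 942, 1170 and 882 in heterozygous arrays. It was lower in 3 of 3 pairs but with overlap between the genotypes. Whether its probes lie in the altered part of the gene is not given in the sources used here.

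Dnase2b had lower signals in every Pax6 heterozygous array than in any wild-type array. Its probe set (1450237_at) read 732, 971 and 677 in wild-type replicates 1, 2 and 3, and 557, 639 and 466 in heterozygous replicates 1, 2 and 3. The genotypes therefore did not overlap, and replicate 2 read highest and replicate 3 lowest in each. Mean signals were 793 ± 156 and 554 ± 86.5 (SD, n = 3 mice each), the second being 69.8% of the first. The 3 same-numbered pairs stood at 76.1%, 65.8% and 68.8%.

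The log2 difference of Dnase2b was −0.51 ± 0.19 (standard error, limma, unadjusted p = 0.0334, adjusted p = 1.00), so it did not pass the test over all probe sets. A fit with a replicate block gave a standard error of 0.10 (limma, unadjusted p = 0.00237, adjusted p = 0.301). The study listed this probe set among its lower transcripts on these same 6 arrays, so its direction is not independent evidence. The unadjusted p was 0.0951 without wild-type replicate 2 and 0.105 without heterozygous replicate 3, with differences of −0.36 and −0.39. Apart from the arrays, the study reported lower Dnase2b by quantitative PCR on different RNA preparations, and those values were not used here.

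The 250 bases upstream of the Dnase2b transcript start hold a match to the 8-letter heat shock element GAANNTTC, the type of site read by heat shock factors such as Hsf4, a regulator of fiber genes. The sequence is shown because Dnase2b is the member gene whose genotypes did not overlap at its brightest probe set. It lies at chr3:146615599-146615848 on the minus strand of GRCm38.p6, as given in RefSeq, and capitals mark the match, which begins at position −230 counted from the transcript start.

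Dnase2b: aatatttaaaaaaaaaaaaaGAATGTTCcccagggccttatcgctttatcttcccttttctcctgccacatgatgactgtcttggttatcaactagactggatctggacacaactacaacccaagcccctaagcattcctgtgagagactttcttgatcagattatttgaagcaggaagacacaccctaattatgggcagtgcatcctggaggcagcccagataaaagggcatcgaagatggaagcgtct

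Of 32851 such upstream sequences in the table, 6.69% hold this element on either strand, so a match is a description only. Among the member genes, a window of Fyco1 holds it too. A match to the AP-2 motif GCCNNNGGC, found in 13.7% of all, was not present in this window. The window has a G+C content of 43.6% and 3 CpG dinucleotides, against medians of 52.4% and 6 over all windows. The Atg7 window is alike, with 43.2% and 3, but belongs to a transcript that starts 27969 bases inside the gene. The windows of Bnip3, Map1lc3b, Sqstm1, Chmp4b and Atg5 have G+C contents from 56.4% to 72.4% and from 14 to 30 CpG dinucleotides. The RefSeq gene of Dnase2b itself begins 1462 bases further upstream of its window's transcript start.

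Dnase2b was also set against genes of the fibers in general. The mean log2 signal of the 10 fiber markers was 12.97 ± 0.22 for the wild type and 12.89 ± 0.24 for the heterozygotes (SD, n = 3 mice each), a difference of −0.08 (two-sided exact permutation p = 0.7, the smallest possible being 0.1). Within the same-numbered pairs that mean differed by −0.10, −0.07 and −0.06. All markers but Gja3 are crystallin, Mip and Bfsp1 probe sets, which read between 5296 and 17785, so the mean rests on very bright probe sets. Relative to that mean, Dnase2b stood at −3.25, −3.28 and −3.53 in the wild-type arrays and at −3.54, −3.81 and −4.01 in the heterozygous arrays. The genotypes did not overlap, although wild-type replicate 3 and heterozygous replicate 1 were nearly level. The difference on this scale was −0.43 (two-sided exact permutation p = 0.1, the smallest that 3 against 3 mice allow). The fiber marker with the lowest difference was Gja3, a connexin of fiber gap junctions, at −0.56 ± 0.52 (standard error). It read 291, 813 and 404 in wild-type and 183, 583 and 279 in heterozygous arrays, which overlap, and stood lower in 3 of 3 pairs, by an amount near that of Dnase2b (limma with the replicate block, unadjusted p = 0.00141, adjusted p = 0.285). Among the 6 measured epithelium markers, 5 lay below 0, where 53.0% of all genes did. The receptor gene Pdgfra among them read 618 ± 68.1 in the wild type and 409 ± 20.1 in the heterozygotes (SD), without overlap, and is in the study's list. The median of the epithelium markers was −0.27. Cdh1 lay at −0.48 ± 0.30 and Npnt at −0.38 ± 0.20 (standard error), both with overlap, and Gja1 at 0.04 ± 0.17. Foxe3, among those below 0, read between 8.77 and 14.7, near background. The summed signal of the epithelium markers ranged from 8992 to 11127 in wild-type and from 8854 to 10489 in heterozygous arrays. That sum comes mostly from the bright Gja1 and Slc7a5, so it shows little of the other markers. Of 5 measured retina markers 3 lay above 0, with a median of 0.42, and their summed signal was 393, 350 and 317 in wild-type and 611, 658 and 339 in heterozygous arrays. Otx2, which is also made in the pigmented epithelium, averaged 169 ± 21.8 and 346 ± 140 (SD), while Elavl4, a neuronal gene, averaged 71.8 ± 7.30 and 50.7 ± 3.31. The part of cell composition in the Dnase2b difference was not tested.

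Of the 13 measured genes that act on fiber denucleation or its regulators, 10 lay below 0, with a median of −0.19, and 0 passed the adjusted test, where 53.0% of all genes lay below 0. The list holds Pax6 itself, the altered gene, and without it 9 of 12 lay below 0 with a median of −0.18. Gata3, a zinc finger factor of fiber differentiation, was the single gene of these whose genotypes did not overlap. It read 84.5, 77.6 and 92.5 in the wild-type arrays and 58.6, 41.8 and 61.7 in the heterozygous arrays. The log2 difference was −0.67 ± 0.18 (standard error, limma, unadjusted p = 0.00864, adjusted p = 1.00). Hsf4 was highest in replicate 2 of both genotypes, with 205, 609 and 193 in wild-type and 163, 515 and 174 in heterozygous arrays. Dnase2b was highest in replicate 2 of each genotype too, as were Sqstm1 and the brightest Map1lc3b probe set. In wild-type arrays Hsf4 and Dnase2b were both lowest in replicate 3. In heterozygous arrays Hsf4 was lowest in replicate 1 and Dnase2b in replicate 3. Within the same-numbered pairs Hsf4 differed by −0.34, −0.24 and −0.16, with overlap between the genotypes (limma with the replicate block, unadjusted p = 0.0488, adjusted p = 0.552). A link between Hsf4 and Dnase2b was not tested. Cdk1, the mitotic kinase, lay at 0.90 ± 0.57 (standard error), with 189, 57.3 and 75.2 in wild-type and 316, 167 and 99.4 in heterozygous arrays, which overlap. It stood higher in each same-numbered pair (limma with the replicate block, unadjusted p = 0.0064, adjusted p = 0.379). With that block, 2 genes of the list were higher and 3 lower at an unadjusted p under 0.05, Pax6 among the lower, and 0 passed after adjustment. Of all probe sets 9.03% reached that level. Tfap2a, the AP-2α gene, read 358 ± 57.9 and 299 ± 111 (SD).

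Of 9 other genes measured for nucleases or a nuclease inhibitor, 0 passed the test and 0 had genotypes without overlap. Dnase2a, the broadly expressed lysosomal relative of Dnase2b, read 392, 314 and 412 in wild-type and 312, 274 and 347 in heterozygous arrays. Each heterozygous value lay below its same-numbered wild-type value, yet the genotypes overlap. The difference was −0.26 ± 0.16 (standard error, limma, adjusted p = 1.00). The other 8 lay between −0.15 and 0.16, but all 8 had a wild-type mean under 50. Their signals are dim, so the lack of a difference there does not show that they were unchanged.

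Among 6508 other probe sets of a single gene and a mean signal of at least 100, the 5 whose pattern over the 6 arrays was most like that of Dnase2b had Pearson correlations of its log2 signal from 0.966 to 0.977. They belong to H2ac19 (a histone H2A gene, with 2 probe sets), Crygn (a gamma-crystallin gene), Kctd2 and Trap1 (a mitochondrial chaperone). Crygn read 8659, 9853 and 8747 in wild-type and 7990, 8606 and 7001 in heterozygous arrays. The 6 arrays share genotype and replicate number, and these correlations were picked as the highest of many.

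**Figure D1:**
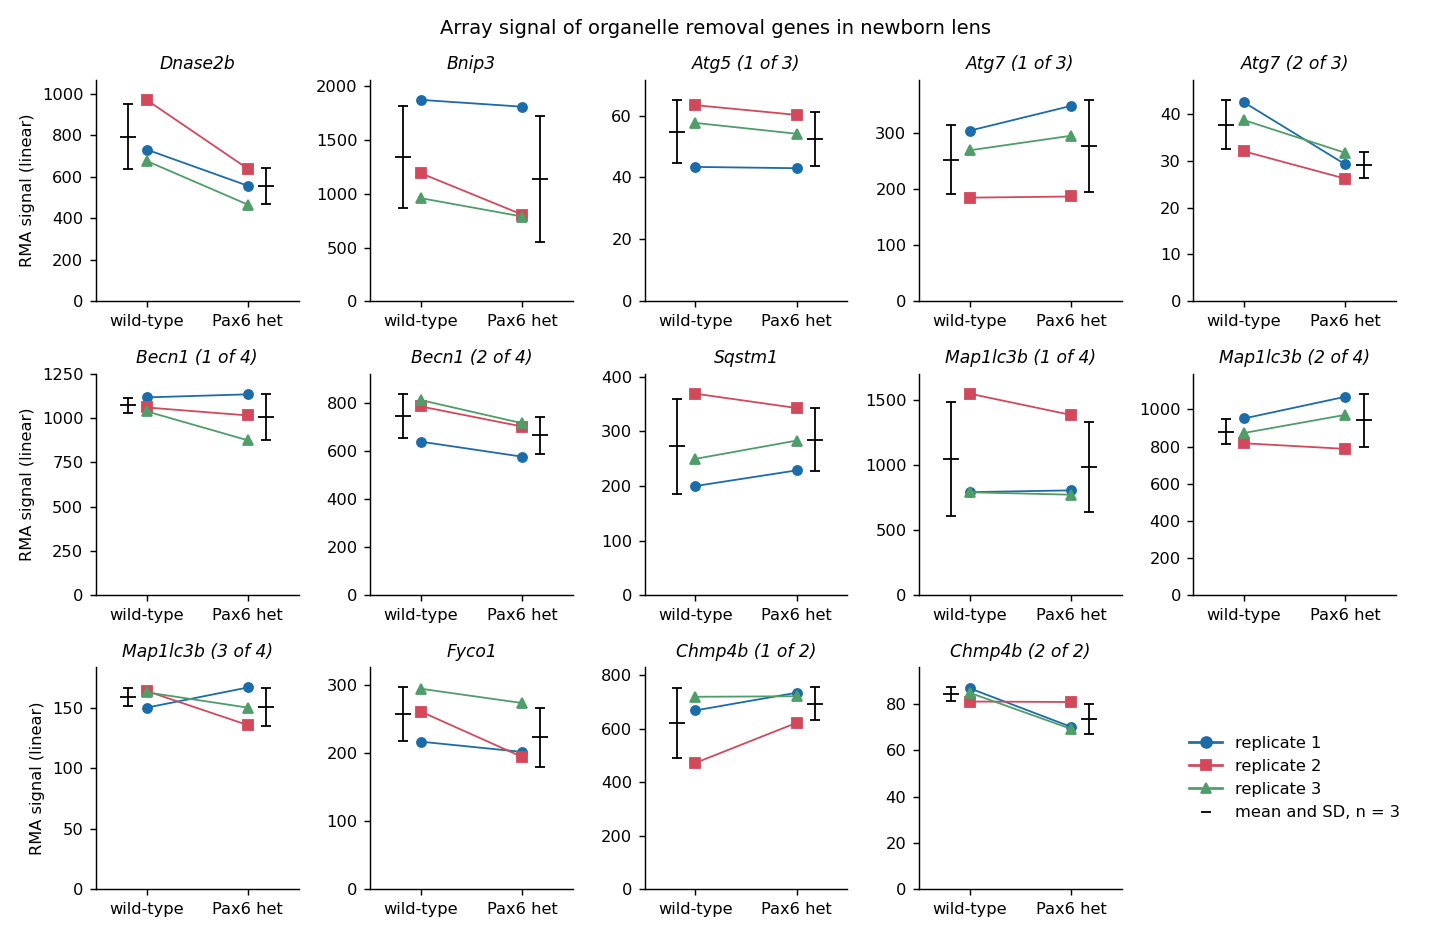
RMA signal (linear, from 0) of the 13 member probe sets with a median of at least 50 and of the Atg7 probe set with non-overlapping genotypes, in wild-type and Pax6 heterozygous lenses. Colored lines join arrays with the same replicate number, black marks give the mean and SD of 3 mice, and numbers in brackets give the probe set's order by mean log2 signal; Dnase2b is lower in all 3 pairs without overlap, while Bnip3 and the first Map1lc3b probe set are set apart by replicate number.

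Bnip3 encodes a mitochondrial outer membrane receptor that recruits LC3 for mitophagy and is induced by hypoxia. Its probe set (1422470_at) read 1874, 1191 and 960 in wild-type and 1811, 806 and 789 in heterozygous arrays. Replicate 1 was the highest in both genotypes, and the ranges overlap. The means were 1342 ± 475 and 1135 ± 585 (SD, n = 3 mice each). All 3 pairs stood below wild-type, at 96.6%, 67.7% and 82.2%. The log2 difference was −0.30 ± 0.39 (standard error, limma, adjusted p = 1.00), and −0.30 ± 0.13 with the replicate block (limma, unadjusted p = 0.0587). It was −0.03 without wild-type replicate 1 and −0.69 without heterozygous replicate 1.

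Replicate 1 was also the array with the most signal from vessels and macrophages. The summed signal of 6 endothelium markers was 867, 549 and 574 in wild-type and 1364, 770 and 756 in heterozygous arrays. All 6 had differences above 0, where 53.0% of all genes lay below 0. Their median was 0.47, and their defining member Pecam1 read between 9.62 and 20.6. The summed signal of 6 macrophage markers was 737, 229 and 233 in wild-type and 835, 500 and 131 in heterozygous arrays. The part of these cells in the Bnip3 signal was not tested. RNA of Hif1a, the hypoxia-inducible factor, had another order than Bnip3 at the brightest of its 4 probe sets. It read 1660, 1877 and 2240 in wild-type and 1742, 1954 and 2853 in heterozygous arrays. A part of hypoxia in the Bnip3 signal was not tested.

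The Bnip3 upstream window is shown for its match to ACGTG, the core of the hypoxia response element, which 16.6% of all windows hold. It lies at chr7:138909507-138909756 on the minus strand of GRCm38.p6. Capitals mark the match, a palindromic CACGTG box that is read as ACGTG on each strand and begins at position −108.

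Bnip3: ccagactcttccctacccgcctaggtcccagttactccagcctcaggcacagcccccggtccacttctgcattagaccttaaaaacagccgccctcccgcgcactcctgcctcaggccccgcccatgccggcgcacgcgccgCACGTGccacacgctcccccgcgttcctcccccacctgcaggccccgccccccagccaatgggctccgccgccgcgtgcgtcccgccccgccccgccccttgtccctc

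A CACGTG box, the core of the sites read by the lysosome and autophagy regulator TFEB, is in 6.02% of all windows. Among the 9 windows of 8 member genes in the table it was found in those of Bnip3, Atg5 and Atg7. The Atg7 window belongs to a transcript that starts 27969 bases inside the gene. The FoxO motif GTAAACA, present in 3.17% of all windows, was in none of the 9.

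Atg5 and Atg7 act in the conjugation steps that lengthen the autophagosome membrane, Atg5 as the partner of Atg12 and Atg7 as the activating enzyme. The 3 Atg5 probe sets, all designed from 1 sequence record, did not move together. The brightest read 43.4, 63.4 and 57.6 in wild-type and 43.0, 60.2 and 54.1 in heterozygous arrays. These pairs are nearly level, at 99.0%, 95.0% and 93.9% of wild-type. The second (1415684_at) read 60.0, 40.6 and 51.3 against 36.3, 45.3 and 25.9, a log2 difference of −0.52 ± 0.25 (standard error, limma, unadjusted p = 0.0771, adjusted p = 1.00). That is as large as the Dnase2b difference, but its pairs pointed both ways, at 60.6%, 112% and 50.5%. The dimmest lay at 0.13 ± 0.21.

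Atg7 also gave opposite signs at probe sets from 1 record. The brightest (1428610_at) read 304, 185 and 269 in wild-type and 348, 187 and 295 in heterozygous arrays, which puts the heterozygous value higher in 3 of 3 pairs. The difference was 0.11 ± 0.29 (standard error), and replicate 2 was low in both genotypes. A dimmer probe set (1428612_at) read 42.5, 32.0 and 38.7 against 29.2, 26.2 and 31.7. Here every heterozygous value lay below every wild-type value, but only just so for wild-type replicate 2 and heterozygous replicate 3. The difference was −0.37 ± 0.15 (standard error, limma, unadjusted p = 0.0462, adjusted p = 1.00). The study listed this dimmer probe set as lower on these same arrays, and did not list the brighter one. The third Atg7 probe set read from 10.7 to 17.2 and lay at −0.29 ± 0.19.

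Becn1 encodes Beclin 1, a subunit of the lipid kinase complex that starts the autophagosome. Its brightest probe set read 1117, 1060 and 1038 in wild-type and 1134, 1015 and 875 in heterozygous arrays, a difference of −0.10 ± 0.13 (standard error). The second (1460320_at) read 639, 786 and 812 against 576, 702 and 716. Its 3 pairs were alike, at 90.2%, 89.4% and 88.1% of wild-type, although the genotypes overlap because replicate 1 was low in both. That difference was −0.16 ± 0.15 (standard error, limma, unadjusted p = 0.321), and with the replicate block its unadjusted p was 0.133. The other 2 Becn1 probe sets read under 15 in every array.

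Sqstm1 encodes p62, which links ubiquitin-tagged cargo to LC3, and Map1lc3b encodes LC3B. Sqstm1 read 200, 369 and 250 in wild-type and 229, 343 and 283 in heterozygous arrays, with replicate 2 the highest in both. The difference was 0.09 ± 0.26 (standard error). The brightest Map1lc3b probe set (1415930_a_at) read 790, 1545 and 789 against 804, 1382 and 770. Replicate 2 thus stood about as far above the others in one genotype as in the other, and the difference between genotypes was −0.06 ± 0.35. A second Map1lc3b probe set (1415928_a_at) had the reverse order, with replicate 2 the lowest at 818 in wild-type and 788 in heterozygous arrays. It read 952 and 874 in the other wild-type arrays and 1069 and 971 in the other heterozygous arrays, a difference of 0.09 ± 0.15. The third read 159 ± 7.67 and 151 ± 15.6 (SD), and the dimmest stayed between 8.69 and 10.1. None of the 4 passed the test (limma, adjusted p = 1.00).

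Fyco1 encodes an adaptor that carries LC3-coated vesicles along microtubules, and Chmp4b a subunit of the ESCRT-III complex, which cuts membrane necks and seals autophagosomes; both are known as human cataract genes. Fyco1 read 216, 260 and 294 in wild-type and 201, 194 and 273 in heterozygous arrays. All 3 pairs stood below wild-type, at 93.1%, 74.4% and 92.9%, with overlap between the genotypes. The difference was −0.21 ± 0.19 (standard error, limma, adjusted p = 1.00).

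The brightest Chmp4b probe set read 668, 472 and 719 in wild-type and 735, 622 and 722 in heterozygous arrays, and was at or above wild-type in 3 of 3 pairs. The difference was 0.18 ± 0.19 (standard error), and −0.01 without wild-type replicate 2. The dimmer one (1426240_at), from the same record, read 86.9, 81.2 and 85 against 70.2, 81.0 and 69.3. Its genotypes did not overlap, but replicate 2 was nearly level between them. The difference was −0.20 ± 0.12 (standard error, limma, unadjusted p = 0.133, adjusted p = 1.00). This dimmer probe set is also in the study's list of lower transcripts, while the brighter one is not.

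The window upstream of the Fyco1 transcript that starts at the outer end of the gene is shown for a repeat noticed in its sequence. It lies at chr9:123851900-123852149 on the minus strand of GRCm38.p6. Capitals mark 5 copies of GGGAGTTGTAGGCCATCCGTGA, which begin at positions −157, −127, −97, −67 and −37, 30 bases apart. The sequence is the longest that occurs at least 5 times in the window of a member gene.

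Fyco1: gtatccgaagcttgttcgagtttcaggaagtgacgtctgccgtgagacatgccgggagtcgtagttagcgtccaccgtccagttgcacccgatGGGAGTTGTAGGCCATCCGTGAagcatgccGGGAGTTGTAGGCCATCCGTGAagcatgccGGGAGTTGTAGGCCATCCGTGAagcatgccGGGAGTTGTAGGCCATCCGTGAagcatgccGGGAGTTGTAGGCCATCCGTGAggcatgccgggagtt

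Of 32851 windows, this one alone (0.00304%) holds the 22-letter sequence on either strand. The letters were chosen after the sequence had been seen, and nothing measured here bears on what binds them.

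Over the 20 probe sets, 0 passed the adjusted threshold of 0.05 with limma, as did 0 of 22626 (0%). An unadjusted p under 0.05 was found for 2 of 20 (10%), those of Dnase2b and the dimmer Atg7 probe set, against 1.99% of all probe sets. Both were lower in heterozygous lenses, a direction that 1.01% of all probe sets had at this level, and 0 were higher, against 0.977%. The methods' t-test gave 0 of 20 at that level, 3 of 20 (15%) at the study's own wider threshold against 5.86% of all probe sets, and 0 after Benjamini-Hochberg adjustment. With the replicate block the count was 2 of 20 against 9.03% of all, and 0 of 20 passed after adjustment against 0.00884% of all. The genotypes did not overlap in 3 of 20 (15%), with the heterozygous values lower in each, against 6.18% of all probe sets, 3.53% for the lower side and 2.65% for the higher. These 3 are the probe sets that the study listed, so their count is in part fixed by that choice. The median difference was −0.09 over the 20 probe sets, 13 of which lay below 0, against −0.01 and 53.5% for all probe sets. Taken once per gene at the brightest probe set, 6 of 9 genes lay below 0 with a median of −0.06. Over 12393 genes 53.0% lay below 0, with a median of −0.01. Lower values in all 3 pairs were found in 8 probe sets and higher ones in 2, where 17.1% and 13.8% of all probe sets had these patterns.

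**Figure D2:**
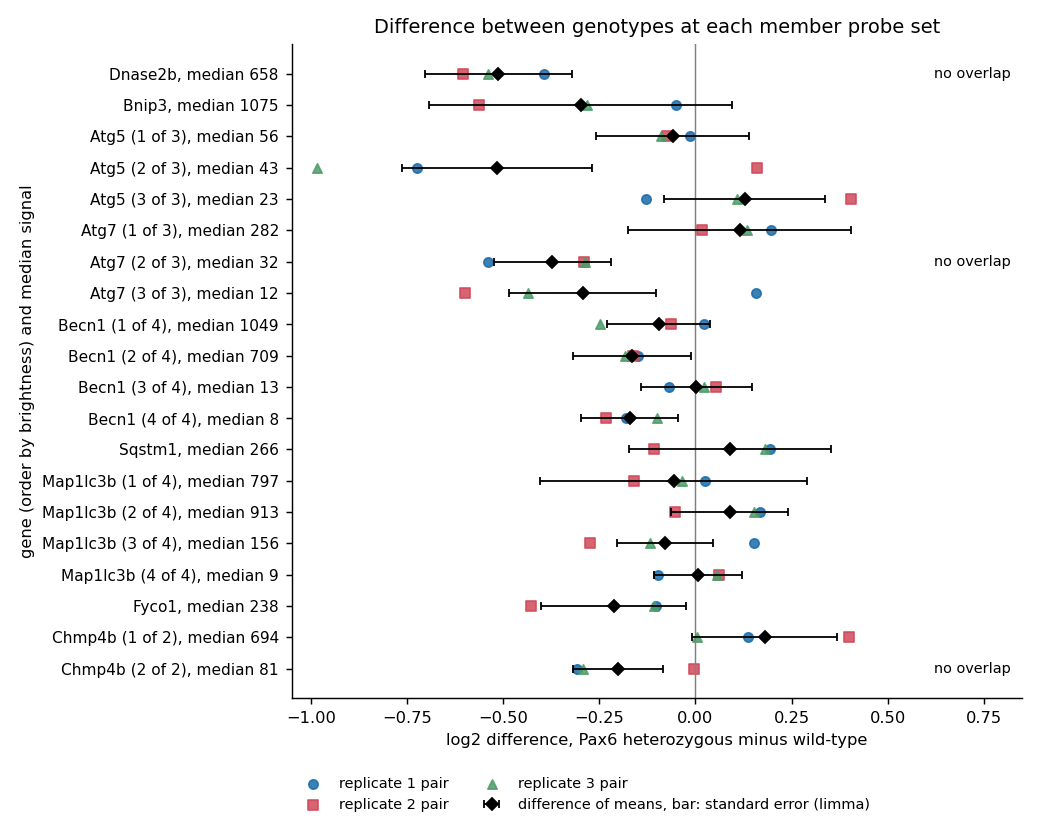
Log2 difference, Pax6 heterozygous minus wild-type, at each of the 20 probe sets. Diamonds give the difference of means with the limma standard error, colored symbols the difference within each same-numbered pair, and the labels the median signal over 6 arrays; probe sets of Atg7 and of Chmp4b lie on both sides of 0, and the 3 without overlap between genotypes are marked.

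The signals also varied by replicate number. The 3 numbers had the same order in both genotypes in 10 of 20 probe sets, against 36.5% of all probe sets. The mean deviations of the replicate numbers, averaged over both genotypes, spanned more than the difference between genotypes in 16 of 20, and this held for 87.3% of all probe sets, so that it is not particular to these genes. The span was 1.08 in log2 units for Bnip3, 0.91 for the brightest Map1lc3b probe set, 0.81 for the brightest Atg7 probe set and 0.735 for Sqstm1, against genotype differences of 0.06 to 0.30 in size. For Dnase2b the span was 0.49 and the genotype difference 0.51 in size. At the brightest probe set of each gene, replicate 2 was high for Dnase2b, Atg5, Sqstm1 and Map1lc3b and low for Atg7 and Chmp4b, while dimmer probe sets of Atg5, Atg7, Map1lc3b and Chmp4b did not all share that order. Of 36 pairs of genes across the 6 arrays, the deviations of the brightest probe sets of Dnase2b and Map1lc3b had a Pearson correlation of 0.930, those of Sqstm1 and Map1lc3b 0.884, and those of Atg7 and Map1lc3b −0.942. The first and last of these were the highest and lowest of the 36. They depend on the probe set chosen, since another bright Map1lc3b probe set (1415928_a_at) had the reverse replicate order. The correlations are descriptions over 6 arrays that share 3 replicate numbers. What the numbers share is not stated in the sources used here.

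**Figure D3:**
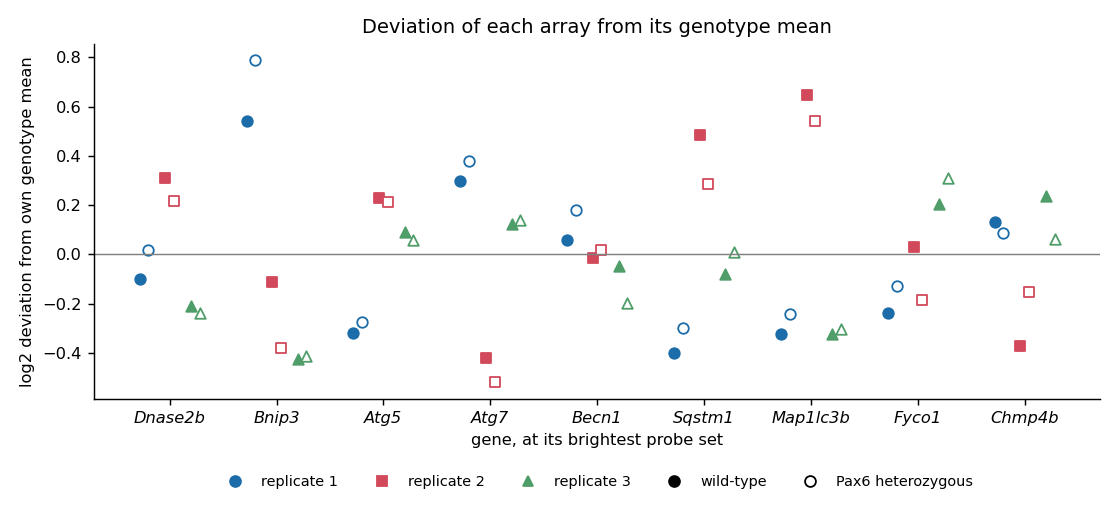
Log2 deviation of each array from the mean of its own genotype for the brightest probe set of 9 genes. Filled symbols are wild-type and open symbols Pax6 heterozygous arrays, with color and shape for the replicate number; symbols of a color lie close together, as for replicate 1 of Bnip3 (0.54 and 0.79) and replicate 2 of Map1lc3b (0.65 and 0.54).

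The wider pathway was read from 118 further genes, of which 105 were measured, each at its brightest probe set. With limma 0 of the 105 passed the adjusted test. Only Gata3 and Hgs, 2 genes (1.9%), reached an unadjusted p under 0.05, and both were lower in heterozygous lenses. The genotypes did not overlap in 5 (4.76%), again all on the lower side. With the replicate block 13 (12.4%) had an unadjusted p under 0.05, against 9.03% of all probe sets, and 0 passed after adjustment. The median difference was −0.04, with 69 below 0 and 36 above. Over all 12393 genes the median was −0.01, and 53.0% lay below 0. Over all probe sets the lower side alone held 1.01% with an unadjusted p under 0.05 and 3.53% without overlap, and both sides together 1.99% and 6.18%.

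Of the 10 measured genes of conjugation and the LC3 family, 7 lay below 0, and 2 had non-overlapping genotypes. Of all genes 53.0% lay below 0, and 6.18% of all probe sets had genotypes without overlap. Atg4b, a protease that trims LC3, read 78.7, 73.6 and 74.1 in wild-type and 69.4, 61.3 and 61.2 in heterozygous arrays. Gabarapl2, a relative of LC3, read 555 ± 24.4 and 481 ± 41.5 (SD). Both are in the study's list. Atg10, the conjugating enzyme for Atg12, lay at −0.36 ± 0.20 (standard error, limma, adjusted p = 1.00). The 15 genes of initiation had a median of −0.04, with the lowest p for Wipi2 (338 ± 81.2 and 266 ± 57.1, SD) and Wipi1, both phosphoinositide-binding proteins of the growing membrane.

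The 10 cargo receptor genes had a median of −0.03. Wdfy3, a large scaffold for aggregate clearance, read 94.7, 137 and 158 in wild-type and 95.8, 94.7 and 106 in heterozygous arrays, and Stbd1, a receptor for glycogen, lay at 0.37 ± 0.19 (standard error). Of 14 genes of fusion with lysosomes, Vamp8, a membrane fusion protein, lay at 0.41 ± 0.19, higher in 3 of 3 pairs. Its fusion partner Stx17 lay at −0.25 ± 0.13 without overlap, with 93.4, 109 and 109 in wild-type and 79.2, 92.2 and 90.8 in heterozygous arrays, and it is in the study's list. Of 23 ESCRT genes, the complexes to which Chmp4b belongs, 17 lay below 0 with a median of −0.07, where 53.0% of all genes lay below 0. Hgs, which gathers ubiquitin-tagged cargo, read 31.1, 43.9 and 27.5 against 20.2, 24.1 and 26.1. It is in the study's list too, and its signal is dim. Vps37c lay at −0.67 ± 0.40 (standard error), with wild-type replicate 3 below all others but 1 array.

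The 11 other organelle factors had a median of −0.02, with 0 of them non-overlapping. Plaat3, a phospholipase that breaks down organelle membranes in the lens, averaged 5828 ± 552 in the wild type and 5736 ± 325 in the heterozygotes (SD), a difference of −0.02 ± 0.13 (standard error). Opa1 and Hif1a had the smallest p of this group, at 0.22 ± 0.24 and 0.16 ± 0.22. Fis1, a mitochondrial fission gene picked after its values were seen, read 586, 1893 and 538 in wild-type and 553, 1742 and 556 in heterozygous arrays, so that replicate 2 stood apart in both genotypes as it did for Map1lc3b.

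**Figure D4:**
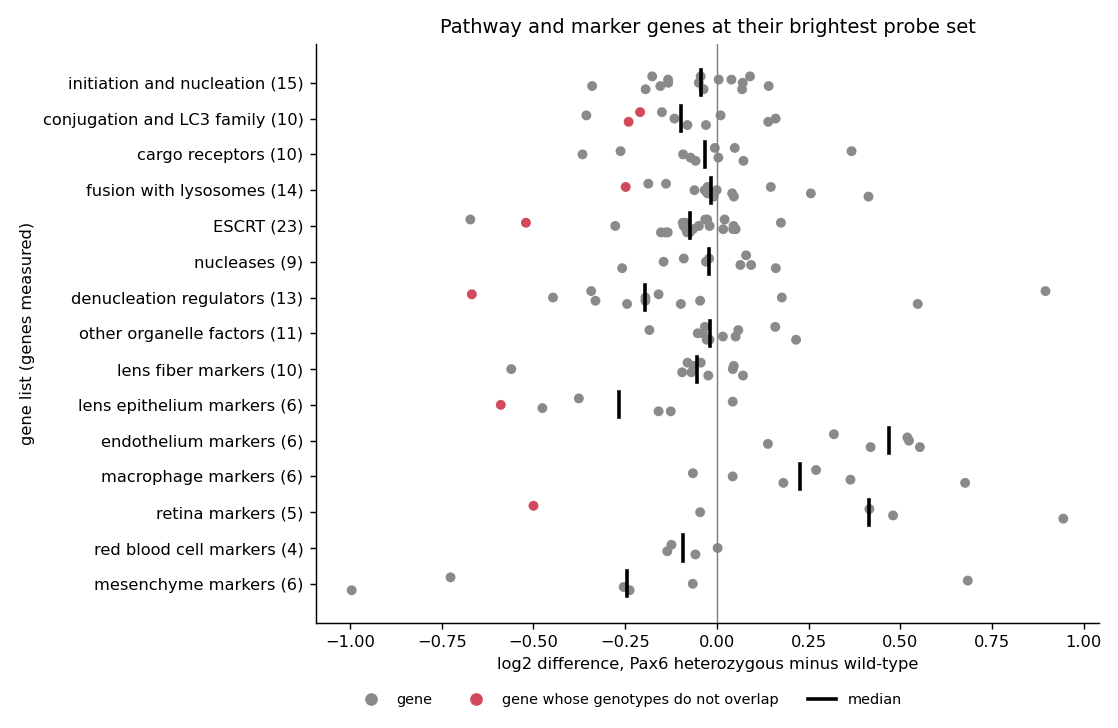
Log2 difference, Pax6 heterozygous minus wild-type, of pathway and cell type marker genes at their brightest probe set, with the number of genes measured in brackets. Points are genes, red points those whose genotypes do not overlap and black bars the list medians; the autophagy lists center near 0, the denucleation list at −0.19, the epithelium markers at −0.27 and the endothelium markers at 0.47.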

How the data were processed

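Newborn lens RNA of 3 wild-type and 3 Pax6 heterozygous mice was measured on 1-color Affymetrix arrays after amplification with the NuGEN system. Signal intensities were deposited by the authors after RMA, whose version is not given in the sources used here. The values are linear, already background-corrected and normalized, with no counts. The number of arrays limits the precision, as does background at dim probe sets, since RMA pulls ratios of dim probe sets toward 1. The 64 control probe sets were left out, log2 was taken without further normalization, and limma 3.58.1 (lmFit, eBayes) in R 4.3.3 was fitted to 22626 probe sets with Benjamini-Hochberg adjustment and a threshold of 0.05. Figures used matplotlib 3.10.9 in Python 3.11.15.

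The array that the methods name has more probe sets than the table used here, and the others were not analysed here. Of the probe sets, 20380 have 1 gene symbol, 691 several and 1555 none. Matching by Entrez number to RefSeq genes succeeded for 20351. The brightest probe set of a gene has the highest mean log2 signal. Upstream windows of 250 bases come from a RefSeq promoter table of GRCm38.p6, which matched 8 of the 10 member genes. Protein sequences were not used here.

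The members and gene lists were chosen with earlier results of these data known. The genes named are all members, the 2 genes of smallest p in each pathway list, nucleases, markers, the 5 probe sets most like Dnase2b, and, outside this rule and chosen after their values were seen, Hsf4, Tfap2a, Gabarapl2, Stx17, Plaat3, Fis1, Pdgfra and Pecam1. Pax6 is named as the altered gene. Same-numbered arrays had correlations of deviations of 0.645, 0.734 and 0.604, others from −0.0751 to −0.496. Deviations within a genotype cancel out, so the negative values follow in part from the positive ones. The labels give only the numbers and do not state a pairing. The fit without the block was the main one, after the methods' unpaired t-test, so its standard errors include the variation by replicate number. Alternatives were the replicate block, array weights, the methods' t-test, quantile normalization, centring on array medians, a filter at a median signal of 50, a robust prior with an intensity trend, a pseudocount of 16, and leaving out each array. The quantitative PCR and chromatin assays of the study were not used here.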

Additional observations from a re-analysis of the deposited data

How the results depend on the processing

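The arrays have 3 mice per genotype, and probe sets under a signal of about 15 lie near background, so small differences there were not measurable. No difference of a member passed the adjusted threshold under any alternative, the replicate block included. Of 274 recomputed differences, 252 kept their direction and 22, in 10 probe sets, did not; the cause was not tested. The Dnase2b difference ranged from −0.62 to −0.36 when 1 array was left out and from −0.54 to −0.43 otherwise, the last relative to 10 fiber markers, a comparison chosen after seeing the data. The number of probe sets with an unadjusted p under 0.05 was 2 in the main analysis, with the replicate block and with a pseudocount of 16, 3 with array weights, 0 with quantile normalization and with the methods' t-test, and 1 with median centring, with a median signal of at least 50 (13 probe sets) and with an intensity trend. It ranged from 0 (without heterozygous replicate 1) to 2 when 1 array was left out, and was 1 without wild-type replicate 1, wild-type replicate 3 or heterozygous replicate 3. Non-overlapping probe sets numbered 3 in the main analysis, 1 with quantile normalization, and from 3 to 6 when 1 array was left out (5 without wild-type replicate 1, and 6 without heterozygous replicate 1 or 2).

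The following differences changed direction, each in a probe set whose main difference was smaller than its standard error. Of the Becn1 probe sets, 1435219_x_at read −0.024 with median centring, −0.013 with array weights and −0.00018 with that pseudocount, and from −0.10 to 0.080 with 1 array left out, and 1455880_s_at from −0.19 to 0.0023. Of Map1lc3b, 1428024_at read −0.019 with median centring and from −0.049 to 0.058 with 1 array left out, 1415928_a_at from −0.0078 to 0.21 and 1415930_a_at from −0.33 to 0.27. With 1 array left out, Atg5 ranged from −0.085 to 0.28 (1418235_at) and from −0.22 to 0.077 (1418236_s_at), Atg7 (1428610_at) from −0.096 to 0.37, Chmp4b (1451988_s_at) from −0.0054 to 0.30 and Sqstm1 from −0.11 to 0.33.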
